A study of Mus musculus with 1 sample.

Results

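Endoderm and stomach identity transcription factors were described in stomach organoids of the mouse, from 1 library of single-cell transcriptomes. The set was chosen by name and comprised 10 of the 32285 genes in the deposited matrix: Sox2, Sox9 and Sox17 (SOX factors with an HMG box), Gata4 and Gata6 (GATA zinc finger factors), Foxa1 and Foxa2 (forkhead factors), Hnf4a (a nuclear receptor), Klf5 (a Krüppel-like zinc finger factor) and Pdx1 (a ParaHox homeodomain factor). Each name matched 1 row of the matrix, so all 10 members were present.

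Organoids are epithelial cultures grown from tissue in a gel. The 1 sample is labelled wild type and untreated, with stomach as its source, and its protocol names trypsin-EDTA digestion (0.05%, 30 min, 37 °C) on day 7 after seeding, followed by a 10x Genomics 3' library. The title of the series concerns adenocarcinoma with loss of E-cadherin, and its text names further organoids called KP and EKP, which were not analysed here. The age, sex and number of the mice, and the part of the stomach, are not given in the sources used here.

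Foregut identity is set in the embryo by overlapping transcription factor domains along the gut tube. FOXA and GATA factors bind closed chromatin and open it for other factors in early endoderm, where SOX17 is a defining gene. Later, SOX2 marks oesophagus and stomach, GATA4 the glandular stomach, PDX1 the antrum, duodenum and pancreas, and CDX2 the intestine. HNF4A drives genes of mature gut and liver epithelium, KLF5 is widespread in proliferating gut epithelium, and SOX9 marks progenitor cells of many endodermal epithelia.

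Cells were kept with 500 or more detected genes and a mitochondrially encoded share of UMIs (unique molecular identifiers, each standing for 1 captured transcript) of 20% or less, which 1892 of 1991 barcodes met. They held 20118334 gene UMIs, with a median of 8512.5 per cell (range 890 to 47183). After removal of 12 called doublets, 1880 cells fell into 7 clusters of 62 to 449 cells, made without the members and without any listed marker gene. General epithelial markers were widespread, with Epcam in 96.6% and Krt8 in 97.9% of cells, as the epithelial label would have it. The lowest of the 5 listed was Cdh1, in 52.1% of cells. One group of cells stood apart: in cluster 7 (62 cells, 3.30% of the clustered cells) 54.8% of cells (95% interval 41.7 to 67.5) had a UMI of a Y-linked gene and 27.4% had one of Xist, against 0.880% (0.504 to 1.43) and 78.3% in the other 1818 cells. Cells of both kinds are in a library with 1 label, and the levels, ratios and pairs that turn on cluster 7 are therefore given with and without it. With 1 library there was no replicate, no difference could be tested, and all intervals cover counting error only.

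The members ran from a Krüppel-like factor in most cells to a forkhead factor in a few. Levels are UMIs per 1000000 gene UMIs of all kept cells (CPM). Since the 3' assay counts transcript ends, levels were not divided by gene length.

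Klf5 was the highest, at 247 CPM (240 to 254), and 79.2% of cells had a UMI of it, up to 21 in 1 cell. Sox9 followed at 81.7 CPM (77.8 to 85.7), in 41.5% of cells. Sox17 was at 45.8 CPM (42.9 to 48.9), in 29.9% of cells. These 3 genes thus stood above Sox2, the foregut factor, which was at 39.8 CPM (37.1 to 42.7) and in 30.2% of cells. Sox17 exceeded Sox2 by a ratio of 1.15 (1.05 to 1.27), a small difference whose interval excludes 1. Foxa1 was at 24.2 CPM (22.1 to 26.5), in 20.2% of cells.

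The other 5 members were rare. Gata4 had 155 UMIs in all, or 7.70 CPM (6.54 to 9.02), and was found in 7.56% of cells. Gata6 (66 UMIs, 3.28 CPM) and Pdx1 (64 UMIs, 3.18 CPM) could not be told apart in level, with a ratio of 1.03 (0.720 to 1.48). Hnf4a (27 UMIs, 1.34 CPM) and Foxa2 (25 UMIs, 1.24 CPM) were the lowest pair, with a ratio of 1.08 (0.603 to 1.94). All other neighbours in the order Klf5, Sox9, Sox17, Sox2, Foxa1, Gata4, Gata6, Pdx1, Hnf4a, Foxa2 had ratios whose intervals excluded 1. Without cluster 7, Pdx1 (56 UMIs, 2.96 CPM) stood above Gata6 (32 UMIs, 1.69 CPM) by a ratio of 1.75 (1.11 to 2.79). The rest of the order was the same, Hnf4a and Foxa2 had a ratio of 2 (0.695 to 6.49), and the intervals of all other neighbours excluded 1. Among the 16967 genes with any UMI in these cells, Klf5 stood at the percentile 97.2 by total count, Sox2 at 84.3, Gata4 at 56.2 and Foxa2 at 33.7.

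**Figure D1:**
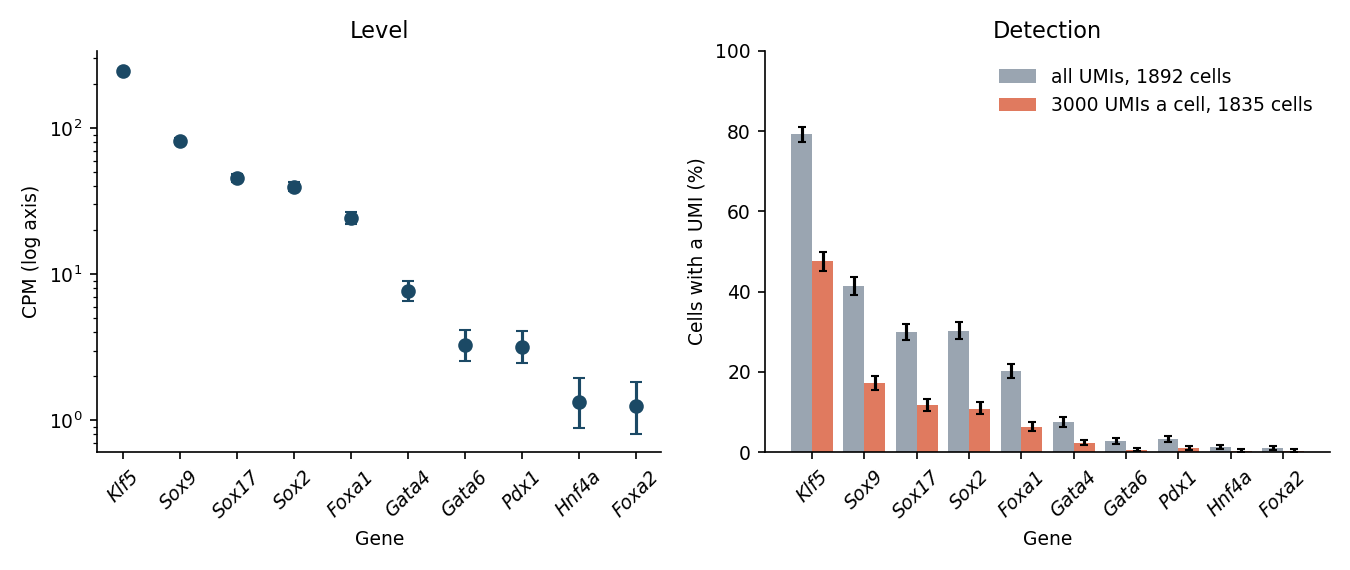
Left, the level of each member in CPM on a log axis, with exact Poisson 95% intervals. Right, the share of cells with a UMI in bars from 0, on all UMIs (1892 cells) and after each cell was thinned to 3000 UMIs (1835 cells), with exact Clopper-Pearson 95% intervals. Klf5 falls from 79.2% to 47.6% of cells with thinning, and Foxa2 and Hnf4a lie near 1 CPM.

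The share of cells with a UMI depends on how deeply a cell was read, so every cell was also thinned to 3000 UMIs by random draw, which left out 57 shallower cells. At this equal depth Klf5 was found in 47.6% of cells (45.3 to 49.9), Sox9 in 17.2% (15.5 to 19), Sox17 in 11.8% (10.4 to 13.4) and Sox2 in 10.9% (9.51 to 12.4). These were the 4 members found in at least 10% of cells. Foxa1 was found in 6.27%, Gata4 in 2.34%, and Pdx1, Gata6, Hnf4a and Foxa2 in 1.09%, 0.654%, 0.381% and 0.327%. Averaged over all possible draws the expected shares were close to these, for example 48.4% for Klf5, 17.6% for Sox9 and 10.6% for Sox2.

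With the cells divided by depth into 4 groups of 473, the members did not rise evenly with cell content. Sox9 had 44.0 CPM in the shallowest group (median 4871 UMIs) and 96.8 CPM in the deepest (median 17942 UMIs). Sox17 ran the other way, from 61.6 to 41.5 CPM. Sox2 (40.7 and 41.3 CPM) and Klf5 (228 and 261 CPM) differed less between the same groups.

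The rarest members need a background to be read against. A UMI of a Y-linked gene was found in 0.880% of cells outside cluster 7. Outside that cluster Foxa2 was found in 5 of 1818 cells (0.275%) and Hnf4a in 11 (0.605%), and Gata6 in 30 (1.65%). The Y-linked share sums 4 genes, whose summed level in cluster 7 differs from that of each of these members, so it is no direct measure of their background. Whether the few UMIs of Foxa2, Hnf4a and Gata6 outside cluster 7 are expression or free RNA was not tested.

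Annotation adds little ambiguity to these counts. On GRCm38 (GENCODE M21), Sox2 is on chromosome 3 (34650405 to 34652461, plus strand) inside the long noncoding Sox2ot, which runs on the same strand, shares no exon with it and had 23 UMIs. Sox17 is on chromosome 1 (4490931 to 4497354, minus strand), and the opposite-strand transcript that overlaps its exons, Gm37587, had 2 UMIs. Gata6 is on chromosome 18 (11052064 to 11085635, plus strand), and its opposite-strand neighbour 1010001N08Rik had 1 UMI. Klf5 is on chromosome 14 (99298691 to 99315036, plus strand) and Sox9 on chromosome 11 (112782224 to 112787760, plus strand). Gata4 is on chromosome 14 (63198922 to 63271692, minus strand), Pdx1 on chromosome 5 (147269959 to 147275848, plus strand) and Foxa1 on chromosome 12 (57540628 to 57546916, minus strand). Foxa2 (148042877 to 148046969, minus strand) and Hnf4a (163506808 to 163572910, plus strand) are both on chromosome 2.

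Several members differed between cluster 7 and the other cells. Foxa2, Hnf4a and Gata6 were far higher there than in the other cells, Gata4, Foxa1 and Sox9 were higher to a lesser degree, Klf5 was level, and Sox17 and Sox2 were lower. This is a description and not a test, since the cluster was drawn from the same cells.

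Foxa2, a forkhead factor of the earliest endoderm, had 19 of its 25 UMIs in cluster 7. It was found in 15 of 62 cells (24.2%) there, at 18.9 CPM, against 5 of 1818 cells and 0.317 CPM elsewhere, a ratio of 59.7 (22.9 to 183). Hnf4a was found in 13 cells of cluster 7 (21.0%), at 13.9 CPM, against 0.633 CPM elsewhere, a ratio of 22.0 (9.45 to 52.1). Gata6 was found in 22 cells of cluster 7 (35.5%), at 33.9 CPM, against 1.69 CPM elsewhere, a ratio of 20 (12 to 33.6). All 3 thus had a large part of their UMIs in a cluster that holds 5.03% of all UMIs.

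Gata4 was at 21.9 CPM in cluster 7 and 6.97 elsewhere, a ratio of 3.14 (1.91 to 4.96). Foxa1 was at 62.7 and 22.1 CPM, a ratio of 2.84 (2.15 to 3.71), and Sox9 at 152 and 78.0 CPM, a ratio of 1.95 (1.64 to 2.31). Pdx1, with 6 UMIs in cluster 7, had a ratio of 2.02 (0.712 to 4.68) that includes 1. Klf5 stood at 241 and 247 CPM (0.974, 0.853 to 1.11). On the low side, Sox17 was at 27.9 against 46.8 CPM (0.596, 0.394 to 0.868) and Sox2 at 11.9 against 41.3 CPM (0.290, 0.149 to 0.509). The foregut factor Sox2 and the early endoderm factor Sox17 were thus low where Foxa2, Hnf4a and Gata6 were highest.

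**Figure D2:**
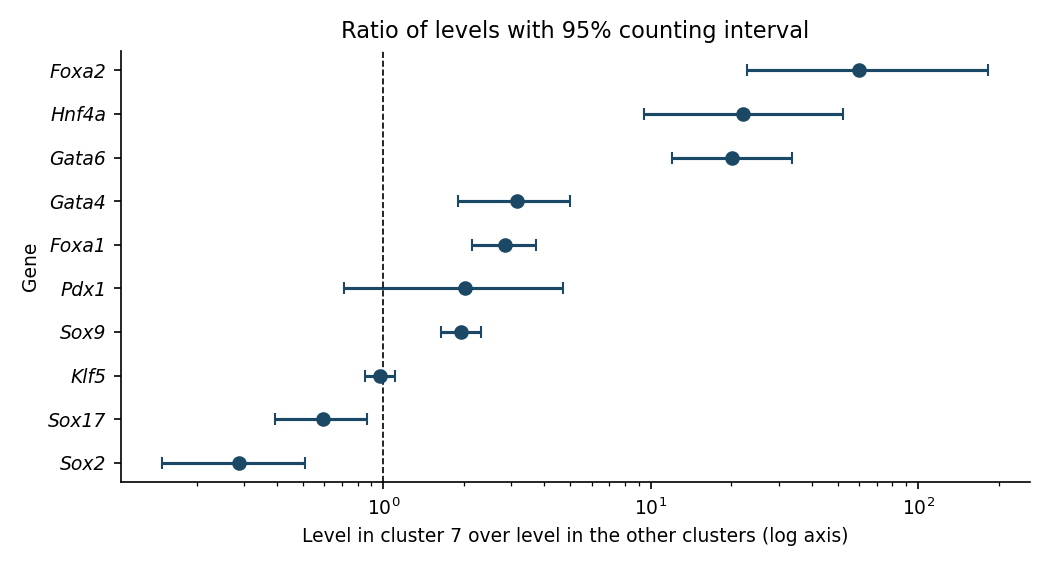
Ratio of each member's level in cluster 7 (62 cells) to its level in the other clusters (1818 cells), on a log axis, with exact conditional binomial 95% intervals. The dashed line marks a ratio of 1. Foxa2 (59.7), Hnf4a (22.0) and Gata6 (20) lie far to the right, and Sox17 (0.596) and Sox2 (0.290) to the left.

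Many genes differed between cluster 7 and the rest. Of 10109 genes with at least 50 UMIs, 10.7% were at least 2-fold higher in cluster 7, against 4 of the 8 members with that many UMIs (Gata4, Gata6, Foxa1 and Pdx1). At most 0.5 times the level was seen for 9.96% of these genes and for 1 of the 8 members, Sox2. Gata6, with 32 UMIs in the other cells, reached the minimum only through cluster 7, and Foxa2 and Hnf4a did not reach it, so nothing is read from these counts of members.

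Cluster 7 was picked out as the cluster with the highest summed level of the 4 Y-linked genes, so their ratio restates that choice. Their summed level was 70.7 CPM in cluster 7 and 0.897 CPM elsewhere, a ratio of 78.8 (45.9 to 143). All 4 were found in at least 10% of the cells of cluster 7. The cells of cluster 7 were also deeper, with a median of 14263 UMIs against 8270.5, and 61.3% (48.1 to 73.4) of them had a UMI of the proliferation genes Mki67 or Top2a, against 26.2% (24.2 to 28.3) of the others, on all UMIs. The part of these differences in the levels of the members was not tested. At an equal depth of 3000 UMIs, Gata6 was found in 6 of 61 cells of cluster 7 and 6 of 1762 others, Foxa2 in 3 and 3, Hnf4a in 4 and 3, Gata4 in 4 and 39, and Pdx1 in 0 and 20. In the same draw Sox9 was found in 41.0% of cells in cluster 7 and 16.4% of others, Klf5 in 54.1% and 47.4%, Sox17 in 4.92% and 12%, and Sox2 in 3.28% and 11.2%. Foxa1 was in 8.20% (2.72 to 18.1) and 6.19% (5.11 to 7.41), intervals that overlap, with expected shares over all draws of 14.5% and 6.06%. Within either multiplexing tag the ratio for Foxa2 was 50.4 (15.3 to 215) and 77.8 (14.8 to 767), and that for Gata6 was 22.4 (11.7 to 43.8) and 15.9 (6.31 to 38.4). Clustering at resolution 1.0 gave the same ratios, and another clustering seed gave 50.6 for Foxa2, 20.9 for Gata6 and 19.7 for Hnf4a. Lower ratios for these genes came from other ways to draw the group. With the cells that had a Y-linked UMI in place of the cluster, Foxa2 was at 31.4, Gata6 at 14.1 and Hnf4a at 8.64. In a coarser clustering (resolution 0.3), Foxa2 was at 33.0, Gata6 at 13.5, Hnf4a at 9.63 and Gata4 at 1.91. The low members were then nearer to the other cells, with Sox2 at 0.638 and Sox17 at 0.813.

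Some related factors, 3 of which are given here, were higher in cluster 7 as well. Gata5, a GATA factor of gut and heart, had 12 of its 24 UMIs there, a ratio of 18.9 (7.75 to 45.9). Foxa3, the forkhead paralog of liver and gut, had 11 of 23, a ratio of 17.3 (6.91 to 42.8). Hnf4g, the paralog of Hnf4a, had 4 of 11, a ratio of 10.8 (2.31 to 42.4).

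Targets of HNF4A that could be read were few. Of 7 apolipoprotein, transport and liver-type genes listed, 4 had no UMI in any cell. Apoa1 had a ratio of 20.8 (13.9 to 31.3) between cluster 7 and the rest, and Apob one of 27.0 (12.9 to 57.7). Ttr, with 1 of its 5 UMIs in cluster 7, had a ratio of 4.72 (0.0958 to 47.7) that includes 1. The summed level of the list was 74.7 CPM in cluster 7 and 3.54 CPM elsewhere.

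RefSeq start-site windows of GRCm38.p6 are shown for members that were higher together in cluster 7, to give the sequence beside their annotated starts. Windows of 300 bases (250 before the start and 50 after it) matched 5 of the 10 members, in 8 windows: Sox2, Foxa1, Foxa2 (3 starts), Hnf4a (2 starts) and Pdx1. The other 5 were not matched. Each window was searched on both strands for TGTTTAC as the forkhead motif, for AGATAA as that of the zinc finger family of Gata4 and Gata6, for ACAAAG as the SOX motif, for CAAAGTCCA as the HNF4 motif and for CCACACCC as the Krüppel-like motif. The 250 upstream bases are printed 5′ to 3′ on the gene's strand, with matches in capitals, for Foxa1 (chr12:57546112-57546361, minus strand), the third start of Foxa2 (chr2:148045465-148045714, minus strand) and the first start of Hnf4a (chr2:163506607-163506856, plus strand).
Foxa1: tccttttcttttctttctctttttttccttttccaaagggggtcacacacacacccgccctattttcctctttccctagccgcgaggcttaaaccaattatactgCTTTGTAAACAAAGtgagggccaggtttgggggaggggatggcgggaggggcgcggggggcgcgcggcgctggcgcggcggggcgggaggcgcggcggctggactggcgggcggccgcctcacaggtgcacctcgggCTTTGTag
Foxa2, the third start: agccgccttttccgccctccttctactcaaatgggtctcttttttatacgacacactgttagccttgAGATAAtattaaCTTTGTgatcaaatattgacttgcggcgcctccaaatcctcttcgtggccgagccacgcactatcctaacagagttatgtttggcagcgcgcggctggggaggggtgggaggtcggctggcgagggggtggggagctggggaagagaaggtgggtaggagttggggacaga
Hnf4a, the first start: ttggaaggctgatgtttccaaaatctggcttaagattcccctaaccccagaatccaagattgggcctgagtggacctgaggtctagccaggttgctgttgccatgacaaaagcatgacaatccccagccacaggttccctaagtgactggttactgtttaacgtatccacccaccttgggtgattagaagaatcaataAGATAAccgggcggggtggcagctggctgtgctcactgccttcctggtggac

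The forkhead motif was in 1 of the 8 windows, that of Foxa1, where it begins at position -141 relative to the start and overlaps a SOX match on either side. This motif was in 3.65% of all 32851 windows. The GATA motif was in 2 of the 8, at position -183 of the third Foxa2 start and -52 of the first Hnf4a start, and in 11.2% of all windows. The SOX motif was in 3 of the 8 (Sox2, Foxa1 and the third Foxa2 start) and in 18.7% of all. The HNF4 motif and the Krüppel-like motif were in none of the 8, and in 0.475% and 3.56% of all. A match shows only that these letters are present, and 3' counts do not tell which start a transcript used. The starts of Foxa2 and Hnf4a printed above are those with a match, and their other starts had none.

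Among clusters 1 to 6 the more abundant members were graded rather than switched on or off. Cluster 1 was led by Ly6m, Ndrg1 and 2610528A11Rik, cluster 2 by Aox3, Scgb3a1 and Cbr2, cluster 3 by Cxcl2, Cxcl5 and Mgat4c, cluster 4 by 2610528A11Rik, Mt1 and Fam92a, cluster 5 by Psca, Prss22 and 2210011C24Rik, and cluster 6 by the mitotic genes Aspm, Knl1 and Dlgap5. Cluster 7 was led by Cyba, an NADPH oxidase subunit gene, Reg3g, an antimicrobial lectin gene, and Gm3776. None of the 7 clusters was given a cell type name.

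Sox2 was highest in cluster 2, at 58.4 CPM (51.2 to 66.3). It was at 37.7, 40.3, 33.1, 27.8 and 36.5 CPM in clusters 1, 3, 4, 5 and 6. Only the interval of cluster 2 lay wholly above those of the other 5. Its highest and lowest levels differed by a ratio of 2.10 (1.54 to 2.91).

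Sox9 varied most among the 5 members with at least 200 UMIs. It was at 107 CPM (89.9 to 126) in the mitotic cluster 6, 105 in cluster 3, 85.1 in cluster 2, 67.3 in cluster 1, 55.6 in cluster 5 and 27.4 (20.2 to 36.3) in cluster 4. Clusters 3 and 6 did not differ beyond counting error, and the range was 3.90-fold (2.79 to 5.52). Cluster 4 was also the shallowest, with a median of 5736.5 UMIs, and the part of depth in its low levels was not tested.

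Sox17 was higher in clusters 3, 2, 6 and 5, at 60.4, 60.1, 52.2 and 51.2 CPM, with overlapping intervals. Clusters 4 and 1 were at 31.9 (24.1 to 41.5) and 28.0 CPM (23.7 to 32.7). The interval of cluster 4 just reached those of clusters 5 (41.3 to 62.8) and 6 (40.7 to 66.0), while that of cluster 1 lay below all 4. The highest and the lowest differed by a ratio of 2.16 (1.77 to 2.65).

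Foxa1 was at 29.3 CPM in cluster 3 and 29.1 in cluster 6, and lowest in cluster 5 at 12.2 (7.67 to 18.5), a ratio of 2.40 (1.52 to 3.95) between the ends. Klf5 was the most even of the 5, at 293 CPM in cluster 3 and 169 in cluster 4, a ratio of 1.73 (1.53 to 1.97). A range of at least 2-fold over clusters 1 to 6 was seen for 4 of the 5 members with at least 200 UMIs and for 39.5% of the 6464 genes with that many.

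Of the rare members, Gata4 ran from 8.84 CPM in cluster 1 to 2.78 in cluster 5. Pdx1 was at 7.46 CPM (3.58 to 13.7) in the mitotic cluster 6, with 10 UMIs in 10 of 95 cells, and at 1.14 to 3.58 CPM in the other 5. Gata6 was at 5.22 CPM (2.10 to 10.8) in cluster 6, from 7 UMIs, and at 0.556 to 1.79 in the other 5. Foxa2 and Hnf4a had at most 2 and 4 UMIs in any of these clusters, and no order was read from them.

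**Figure D3:**
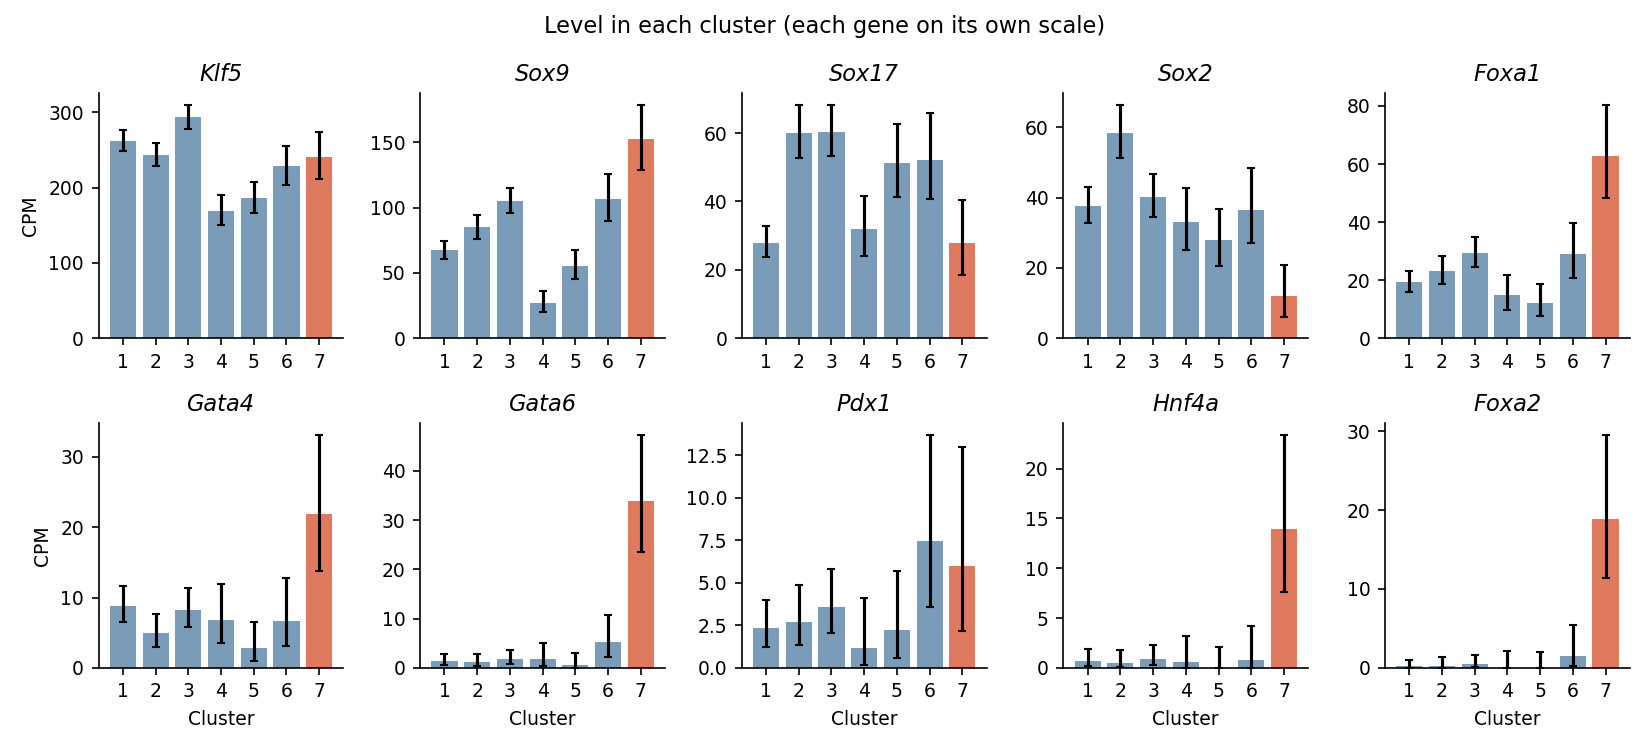
Level of each member in clusters 1 to 7 in CPM, in bars from 0 with exact Poisson 95% intervals, each gene on its own scale. Cluster 7, with the Y-linked UMIs, is in the warmer colour. Gata6, Hnf4a and Foxa2 stand out in cluster 7, Sox2 is lowest there and highest in cluster 2 (58.4), and Sox17 is higher in clusters 2, 3, 5 and 6 than in 1, 4 and 7.

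Proliferation was examined after thinning, so that depth would not decide which cells carried a UMI of Mki67 or Top2a. In 1 draw 238 cells had such a UMI and 1597 had none. Of the 5 members with at least 50 UMIs after thinning, 0 differed 2-fold in either direction, as did 4.47% of 6870 genes. Sox9 was at 72.8 CPM in the positive and 69.5 in the negative cells of that draw, a ratio of 1.05 (0.767 to 1.41). Averaged over all draws its expected ratio was 1.44, and 1.35 without cluster 7. Sox2 was at 0.878 (0.554 to 1.34) in the draw and 0.886 over all draws, and Klf5 at 1.16 (0.989 to 1.36) and 1.04. Without cluster 7 the interval of Sox17 in the draw, 1.44 (1.01 to 2.003), lay just above 1, with an expected ratio of 1.22 over all draws. Foxa2 had 3 UMIs in each set of cells, a ratio of 6.71 (0.899 to 50.1). With cluster 7 kept, the intervals of all 10 members in that draw included 1.

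The 2 multiplexing tags in use (oligonucleotides that mark cells of 1 suspension) divided the library into 1062 cells with CMO301 and 830 with CMO302, and the labels do not say what either marks. Sox2 was at 39.0 and 40.9 CPM in these, Sox9 at 84.0 and 78.8, Klf5 at 245 and 249, and Foxa1 at 24.7 and 23.6. None of the 8 members with at least 50 UMIs differed 2-fold, as did 0.365% of 10132 genes. Hnf4a, below that minimum, had 21 UMIs against 6, a ratio of 2.81 (1.1 to 8.5).

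Joint detection of the members in single cells was counted on all UMIs, where deeper cells hold more of every gene, and at equal depth. On all UMIs a cell had a median of 2 of the 10 members, and the highest number was 9. At 3000 UMIs, 587 of 1835 cells had none, 781 had 1, 385 had 2, 72 had 3, 9 had 4 and 1 had 5. Sox2, Sox9 and Klf5 were found together in 276 of 1892 cells (14.6%, 13.0 to 16.3), and Sox2 with Sox17 in 228 (12.1%).

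Of the 45 pairs, 15 had both genes in at least 30 thinned cells. In 14 of these the interval of the second gene's share among cells with the first held its share among cells without it. Sox9 was found in 16.0% (11.2 to 21.8) of cells with Sox2 and in 17.3% of cells without it. Klf5 was found in 50% (42.9 to 57.1) of cells with Sox2 and in 47.3% of cells without. The exception was Foxa1, in 10.6% (6.84 to 15.5) of cells with Sox17 and 5.69% without. Averaged over all draws these 2 expected shares were 6.86% and 6.31%, an odds ratio of 1.09, so the difference in the single draw was not kept.

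For the same 15 pairs, odds ratios on all UMIs pooled over 10 depth groups (Mantel-Haenszel) gave 4 whose interval excluded 1, all above it. They were Sox9 with Foxa1 (1.41, 1.09 to 1.84), Sox2 with Sox17 (1.40, 1.12 to 1.75), Sox9 with Sox17 (1.35, 1.08 to 1.70) and Sox17 with Foxa1 (1.33, 1.03 to 1.71). The same 4 pairs did so without cluster 7. Depth still varies within a depth group. In thinned cells their expected odds ratios were 1.23, 1.07, 1.08 and 1.09. The lowest pair, Sox2 with Gata4, was at 0.675 (0.454 to 1), with an expected odds ratio of 0.682 in thinned cells.

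**Figure D4:**
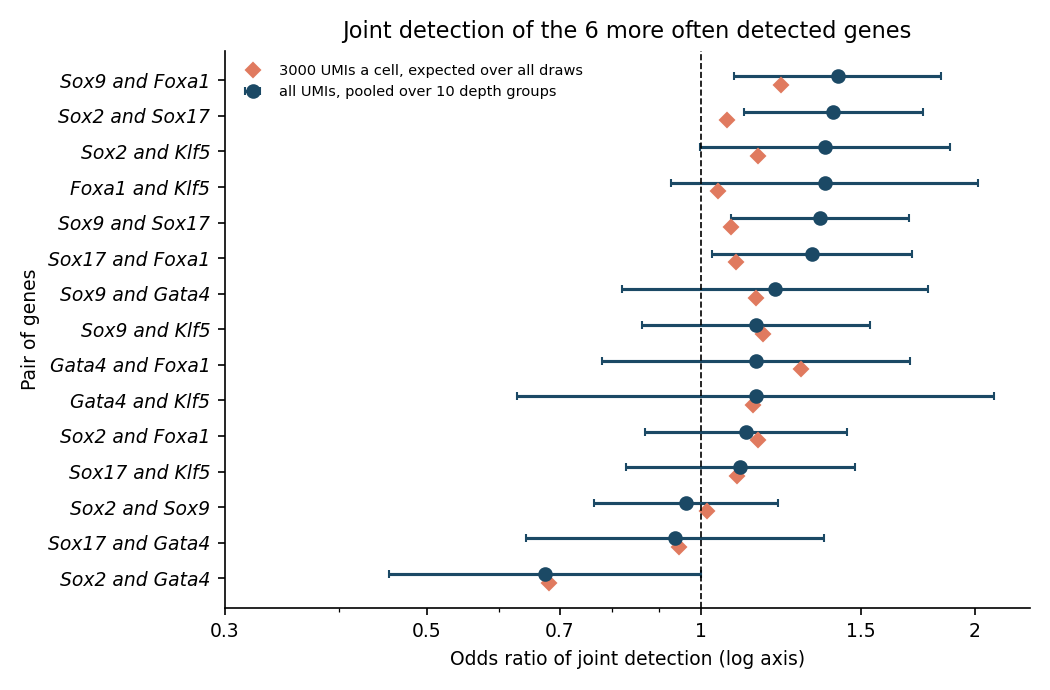
Odds ratio of joint detection for the 15 pairs of Klf5, Sox9, Sox17, Sox2, Foxa1 and Gata4, on a log axis. Circles are pooled over 10 depth groups on all UMIs, with 95% intervals, and diamonds are the expected values over all draws of 3000 UMIs a cell. Circles lie between 0.675 (Sox2 and Gata4) and 1.41 (Sox9 and Foxa1), and diamonds between 0.682 and 1.29.

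Pairs of Gata6, Foxa2 and Hnf4a shared cells mainly in cluster 7. Gata6 and Foxa2 were found together in 9 cells, all in cluster 7. Gata6 and Hnf4a shared 9 cells (8 in cluster 7), and Foxa2 and Hnf4a 6 (5). Gata4 and Gata6 shared 14 cells (9 in cluster 7), Foxa1 and Foxa2 9 (7), and Gata4 and Pdx1 7 (2). At least 1 of Gata6, Foxa2 and Hnf4a was found in 32 of 62 cells of cluster 7 (51.6%, 38.6 to 64.5) and in 44 of 1818 others (2.42%). In cluster 7, 14 cells had at least 2 of them and 4 had all 3, against 2 and 0 of the others.

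Of the other 30 pairs, 28 gave a pooled odds ratio with an interval, which lay above 1 for 6 and below 1 for 2. Those above 1 were Gata6 with Foxa2 (18.4), with Hnf4a (11.9), with Klf5 (8.39) and with Gata4 (3.25), and Foxa2 with Hnf4a (14.4) and with Gata4 (5.21). Without cluster 7, Gata6 and Foxa2 shared no cell, and only Foxa2 with Hnf4a kept an interval above 1 (13.8, 1.19 to 160), which rests on 1 shared cell. The other 4 were then at 3.53, 5.88, 1.94 and 1.36, with intervals that include 1. The pairs below 1 were Sox2 with Hnf4a (0.343, 0.134 to 0.876) and Klf5 with Pdx1 (0.340, 0.163 to 0.706). Without cluster 7, where Sox2 was low and Hnf4a high, Sox2 with Hnf4a was at 0.445 (0.106 to 1.87), which includes 1. Klf5 was found in 46 of the 61 cells with Pdx1, and without cluster 7 this pair was at 0.307. Its expected odds ratio in thinned cells was 0.575. Sox2 and Pdx1, the foregut and the antral factor, shared 26 cells, with an odds ratio of 1.16 (0.663 to 2.01).

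For region and stage, marker lists were read beside the members. The share of all genes found in at least 10% or 1% of cells was not counted. By total count Sox13, in 10.7% of cells, stood at the percentile 62.9 of genes with a UMI. Foxa2, in 1.06% of cells, stood at 33.7, so passing either mark is common. Early definitive endoderm, where Sox17, Foxa2 and Gata6 are expressed together, had none of its 8 listed genes in at least 10% of cells. Mixl1, Gsc, Cer1 and Lhx1 were at 0 UMIs, Eomes had 12, and Hhex, a foregut homeobox gene, was found in 3.91% of cells. Endothelium, the other well known site of Sox17, had no listed gene in 1% of cells: Cdh5, Kdr, Sox18 and Emcn were at 0 and Pecam1 had 3 UMIs. Sox17 was thus measured in a library nearly without either set of markers.

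Corpus products had 0 of 8 measured genes in at least 10% of cells. The proton pump subunit Atp4b, the intrinsic factor gene Cblif, the pepsinogen Pga5 and Esrrg were at 0, for which 3 counts in 1892 cells set a limit of 0.159%, with an exact upper bound of 0.195%. Either is a limit on cells with a UMI at this depth, not on cells that express the gene. The pepsinogen Pgc had 71 UMIs, or 3.53 CPM (1.21 without cluster 7), of which 48 were in cluster 7 (a ratio of 39.4, 23.5 to 67.8). A single cell of cluster 7 held 25 of them, and without it the ratio was 19.3 (10.4 to 36.0).

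Antral markers, of the region where Pdx1 is known, were also few: Gast and Muc6 had 1 UMI each, Nkx6-3 had 3, and the stem cell gene Lgr5 was found in 4.55% of cells. Gkn3, a secreted gastrokine, had 434 UMIs, or 21.6 CPM, found in 6.03% of cells, and 8.02 CPM in 3.96% without cluster 7. Its level in cluster 7 was 34.5-fold that in the other cells, and 26.2-fold (21.1 to 32.5) without the cell that held most.

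Pit mucous genes, of the surface of the glandular stomach, had 4 of 5 in at least 10% of cells, against 0 of 8 for the corpus, 0 of 6 for the antrum and 1 of 4 for neck mucous cells. The trefoil peptide gene Tff1 was at 307 CPM in 54.7% of cells, and the forkhead gene Foxq1 at 248 CPM in 74.5%. Without cluster 7 Tff1 was at 103 CPM in 54.5% of cells, since 4159 of its UMIs were in cluster 7 (a ratio of 40.3, 38.2 to 42.5). One cell of cluster 7 held 2441 of these, and without it the ratio was 17.5 (16.4 to 18.6). The share of cells with a Tff1 UMI ran from 47.7% (40.9 to 54.6) in cluster 5 to 59.9% (55.2 to 64.5) in cluster 1. These intervals do not overlap. Of the 1034 such cells in the library, 610 had 1 UMI. Gkn1 and Gkn2, gastrokines of the same list, also had many of their UMIs in few cells. Gkn1 had 860 of its 1425 UMIs in cluster 7, with 353 in 1 cell, and 349 of the 436 cells that had it had 1 UMI. Gkn2 had 442 of 825 in cluster 7, with 280 in 1 cell, and 274 of its 318 cells had 1 UMI. Their shares ran from 20.4% to 28.4% of cells for Gkn1 and 12.9% to 18.3% for Gkn2 in clusters 1 to 6. In cluster 7 they were 37.1% and 33.9%. The part of free RNA in these shares was not tested, so they are not read as shares of pit cells, and nothing is read from the count of pit genes against the other lists.

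Squamous genes, of the forestomach, where Sox2 is high and Gata4 is absent, had 1 of 10 in at least 10% of cells. That gene was Krt4, at 464 CPM in 80.1% of cells, while Krt5, Krt6a and Sox15 were at 0 and Trp63, the factor that defines basal squamous cells, had 3 UMIs.

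Intestinal genes had 2 of 10 in at least 10% of cells, and 1 of 10 without cluster 7. The intestinal master factor Cdx2 was found in 17.3% of cells, at 18.9 CPM, and at 18.8 CPM without cluster 7. Cdx1, Fabp1, Alpi, Sis and Olfm4 were at 0. Sox2 and Cdx2, which mark opposite sides of the boundary between stomach and intestine, were found in the same 129 cells (6.82%). Their odds ratio given depth was 1.15 (0.877 to 1.51), which includes 1. In the thinned draw Cdx2 was found in 9.5% (5.82 to 14.4) of cells with Sox2 and in 5.20% without, but over all draws the expected shares were 5.96% and 5.74%, an odds ratio of 1.04. This pair was chosen after its values were seen.

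Pancreas and liver genes, of organs that need Pdx1, Hnf4a and Foxa2, had 6 of 8 at 0, among them Ptf1a, Ins2 and Alb. The lung factor Nkx2-1 was at 0. Genes listed for fetal-like gastric epithelium were widespread, with 6 of 8 in at least 10% of cells: Clu was found in 99.4%, Ly6a in 98.7%, Anxa1 in 91.4% and Krt7 in 87.3%.

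**Figure D5:**
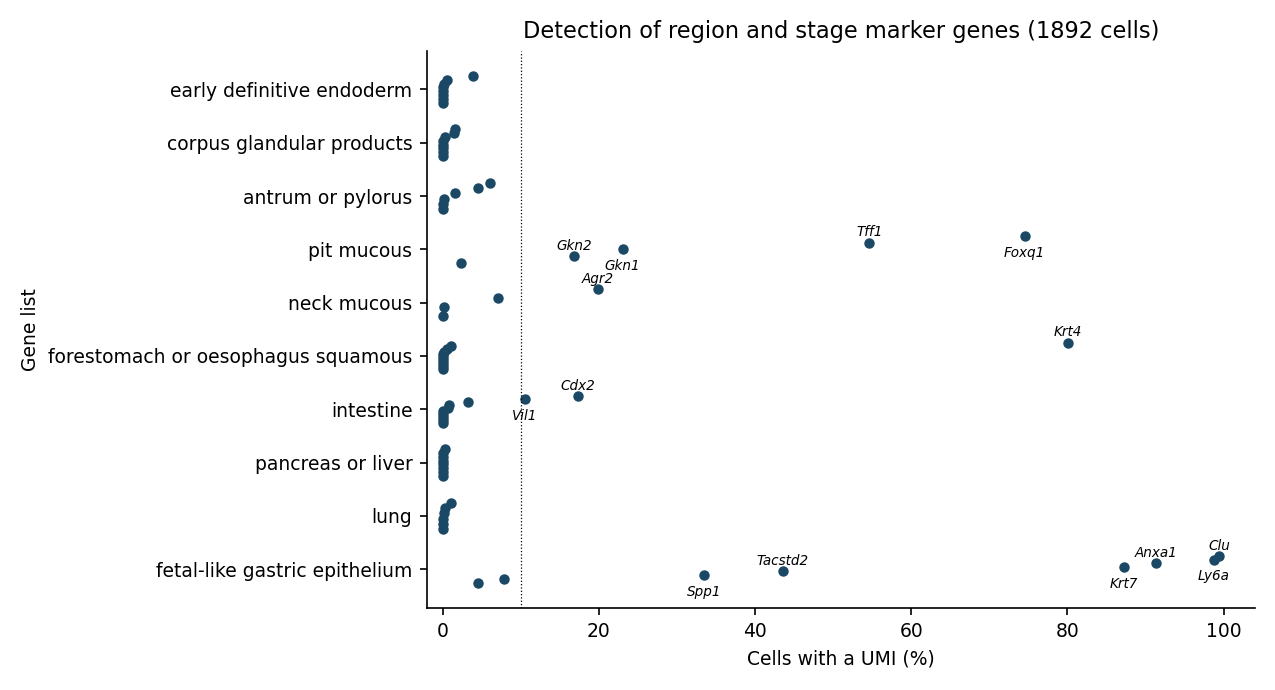
Share of the 1892 cells with a UMI (horizontal axis, %) for every measured gene of 10 region and stage lists, 1 point a gene, with genes above 10% of cells named and the dotted line at 10%. The early endoderm, corpus, antrum, pancreas or liver and lung lists lie wholly below 10%, while fetal-like genes reach 99.4% (Clu) and the pit list reaches 74.5% (Foxq1).

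The pattern of the members was thus Klf5, Sox9, Sox17, Sox2 and Foxa1 in many cells, Gata4 and Pdx1 in few, and Gata6, Foxa2 and Hnf4a at their highest level in cluster 7. Sox9, Foxa1 and Gata4 were also at their highest level there, by smaller ratios. Cluster 7 held 34 of 66 UMIs of Gata6, 19 of 25 of Foxa2 and 14 of 27 of Hnf4a, although 30 cells with Gata6 lay outside it. At the mark of 10% of cells no region or stage list was present whole beside this pattern. All 8 fetal-like and all 5 pit mucous genes were in at least 1% of cells. The share of all genes past that mark was not counted, and nothing is read from the counts at 1%. Which region the culture came from was not tested by these data.

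Within the families, other genes stood beside the members at similar levels. Of 19 SOX genes, 6 were in at least 10% of cells: the members Sox2, Sox9 and Sox17, and Sox4 (70.9 CPM), Sox21 (32.9 CPM) and Sox13 (11.3 CPM). Sox21, a factor of the SOXB2 group, was found in 24.8% of cells. Given depth its odds ratio with Sox2 was 1.31 (1.03 to 1.67), a pair also chosen after its values were seen. Of 6 GATA genes none was in at least 10% of cells, of 3 FOXA genes only Foxa1 was, and of 6 ParaHox genes only Cdx2 was. Of 17 KLF genes 9 were, and Klf4 (399 CPM), Klf6 (388 CPM) and Klf2 (252 CPM) were at or above the level of Klf5. The share of all genes in at least 10% of cells was not counted.

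Genes most alike in pattern to each member were found over 21 finer clusters, by Pearson r of log2(CPM + 1), among genes with at least 20 CPM. The clusters share 1 library and are not replicates, so r is a description. Sox2 was most like Klf13 (r = 0.901), Fut9 (0.833) and Xbp1 (0.832). Sox9 was most like Fat1 (0.907), Sptbn1 (0.898) and Tead1 (0.886), and Sox17 like Tmem176a (0.9), Tmem176b (0.893) and Cebpd (0.881). Klf5 was most like Ddx6 (0.932), Zfhx3 (0.922) and Nfkbiz (0.917), and Foxa1 like Hnrnpab (0.818), Psmd1 (0.814) and Foxp1 (0.806). Without cluster 7 the 3 genes of Sox2 were the same, Sox17 kept Tmem176a and Tmem176b, Sox9 kept Sptbn1, Klf5 kept Ddx6 (now the third), and Foxa1 kept none.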

How the data were processed

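Gene UMI counts of 1 library of wild type mouse gastric organoids were analysed. The authors deposited whole-number counts per feature and barcode, not normalized, for 32285 genes and 12 multiplexing tags, written by Cell Ranger 6.1.2 on GRCm38/mm10, per the submitters' processing notes. The kit is given as 10x 3' v2 per the labels' protocols. Of the gene identifiers, 32235 were found in GENCODE M21.

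Cells with at least 500 genes and at most 20% mitochondrially encoded UMIs were kept, which left out 99 barcodes. Scrublet in scanpy 1.11.5 marked 12 cells (0.634%) as doublets, at an expected rate of 0.8% per 1000 barcodes. These were left out of clusters only. Clusters came from 2000 variable genes without the members, listed markers, sex-linked, mitochondrially encoded and cell cycle genes, 30 components, 15 neighbours and Leiden resolution 0.6 (leidenalg 0.10.2). The Y-linked cluster is the one with the highest summed level of Ddx3y, Uty, Eif2s3y and Kdm5d. Levels are summed UMIs per 1000000 gene UMIs with exact Poisson intervals. The limit given for a count of 0 is 3 counts over the number of cells, and concerns cells with a UMI only. Shares carry Clopper-Pearson intervals and ratios exact conditional binomial ones, all at 95%. For shares, co-detection and proliferation cells were thinned to 3000 UMIs. Expected values over all draws are exact hypergeometric means for shares and pairs, and carry no interval. Those for proliferation treat the draws of the member and the marker genes as independent. Pooled odds ratios used depth deciles, with intervals from statsmodels. No p-value was computed, because cells of 1 library are not replicates. The ratios and their intervals were tested on simulated Poisson counts, which lack the crowding of UMIs in single cells. Thinning was tested for equal totals on cells of the library. Clustering, doublet calls, pooled odds ratios and expected values were not tested on simulated counts.

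The members and marker lists were chosen with earlier results of these data known. Named genes are the members, the listed markers, the 3 leading genes of each cluster by fold, and the 3 genes most alike to each member with at least 200 UMIs. The corpus list also held Gif, an older symbol of Cblif, which has no row of its own and is covered by Cblif. Some listed genes are not reported here. Alternatives were other cell filters, scalings, depths and clusterings, and cluster 7 left out. Those added after seeing the data are cells with a Y-linked UMI in place of the cluster, each tag alone, the order of levels without cluster 7, the cell with most UMIs of a gene left out, expected values over all draws, pairs with Cdx2 or Sox21, and likeness without cluster 7.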

Additional observations from a re-analysis of the deposited data

How the results depend on the processing

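Of 63 results under their alternatives, 273 values stayed within the counting interval of the main value, 42 moved outside it, and no value whose interval excluded its null changed direction. Among ratios whose interval included 1, 3 moved outside that interval and across 1: the odds ratio of Sox2 and Sox17, from 0.714 to 1.40 when pooled over depth groups, that of Gata4 and Klf5, from 0.870 to 1.84 at 5000 UMIs, and Gata6 in proliferating cells, from 2.24 to 0 without cluster 7, from 0 against 6 UMIs in 1 draw (1.69 over all draws). Others crossed 1 within their interval. Scaling without ribosomal and mitochondrially encoded genes raised every level in proportion: Klf5 was then at 391 CPM, Sox9 at 129, Sox17 at 72.7, Sox2 at 63.1 and Foxa1 at 38.4. As a mean over cells Sox9 was at 71.1 CPM, Foxa1 at 22.0 and Foxa2 at 0.757. Without cluster 7 Foxa1 was at 22.1 CPM. Without thinning, and at 5000 UMIs, Klf5 was found in 79.2% and 66.2% of cells and Sox9 in 41.5% and 27.9%, because more UMIs were read per cell. At clustering resolution 0.3, where the matching cluster held 144 cells (59 from cluster 7), the ratio to other clusters was 0.638 for Sox2 and 2.08 for Foxa1. In CMO302 cells alone the ratio of Sox9 was 2.33. With the 50 cells that had a Y-linked UMI in place of the cluster, 34 of them in cluster 7, that of Hnf4a was 8.64. The cause of these last differences was not tested. Without cluster 7, Gata6, Hnf4a and Foxa2 were at 1.69, 0.633 and 0.317 CPM. The expected values over all draws differed from the single draw for Sox9 in proliferating cells (1.44) and for the pair of Sox17 and Foxa1 (1.09). No paired analysis was possible because only 1 library was analysed.

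Depth limits the rare members: below about 30 UMIs in all, as for Hnf4a and Foxa2, levels by cluster rest on single UMIs. UMIs of 1 library cannot show how organoids of other mice would differ. The v2 kit named in the labels and the multiplexing tags in the matrix were taken as given.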

Other observations

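Partner factors of gut epithelium were read beside the members. Of 10 listed, 8 were found in at least 10% of cells, a mark for which the share of all genes was not counted. The Notch target Hes1 was at 855 CPM in 92.1% of cells, Runx1 at 132 CPM in 61.6%, and the ETS factors Elf3 and Ehf at 94.2 and 80.3 CPM. In cluster 7 Hes1 was at 534 CPM against 871 elsewhere (a ratio of 0.613, 0.561 to 0.668), and Elf3 at 127 against 92.5 (1.38, 1.14 to 1.65).

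Of 14 KLF genes with a UMI, 8 had a ratio between cluster 7 and the rest whose interval lay below 1 and 0 one above it. Those below 1 were Klf2, Klf3, Klf4, Klf6, Klf7, Klf10, Klf13 and Klf15. The share of all genes with such an interval was not counted, and abundant genes have narrow intervals, so nothing is read from these counts. Klf2, a factor that responds to flow and stress, had a ratio of 0.274 there and Klf10, a TGF-beta response gene, one of 0.231. Klf5 itself was at 0.974. Among fetal-like genes, Ly6a was lower in cluster 7 (0.396, 0.375 to 0.419) and Clu higher (3.98, 3.89 to 4.07), so the list did not move as one. Il33, an alarmin cytokine gene, was at 86.6 CPM in cluster 7 and 7.60 elsewhere (11.4, 8.63 to 15).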
